A study of Mus musculus with 2 samples.

Results

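The genes of the tumour necrosis factor (TNF) superfamily, their receptors and the TRAF adaptor proteins were followed in RNA-seq data from cells of mouse breast tumours. Members were taken by gene symbol: Tnf, Lta, Ltb, Fasl, Cd40lg, Cd70, Eda and the numbered Tnfsf genes, the receptors Ltbr, Fas, Cd27, Cd40, Edar, Eda2r, Relt and the numbered Tnfrsf genes, and the numbered Traf genes. This rule, which uses no measured value, found 52 of the 22558 genes, 18 ligands, 27 receptors and 7 TRAF adaptors. The cells came from tumours of FVB mice, an inbred strain, and were purified by flow cytometry directly after dissociation, with no treatment. One library held tumour-initiating cells (TIC) and the other non-tumorigenic cells (NTC). The labels give no genotype, age, number of animals or sort markers, and they do not say what drives the tumours. Each group had 1 library, so every difference below is between these 2 libraries, with no SD, p-value or replicate check.

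TNF superfamily ligands are proteins, mostly anchored in the cell membrane, that act as trimers on receptors with cysteine-rich repeats. Receptors with a death domain can recruit adaptors such as Tradd and Fadd that lead to caspases, whereas others bind TRAF proteins, which pass the signal to the NF-kB transcription factors and the JNK and p38 kinases. In the mammary gland, Tnfsf11 (RANK ligand) and its receptor Tnfrsf11a (RANK) are known for their part in alveolar growth under progesterone, and ectodysplasin (Eda) with its receptor Edar for the formation of the gland and other skin appendages.

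Levels are in FPKM, a count of fragments divided by transcript length and by library size. The RNA was amplified before sequencing, which can alter the share of reads by length and base composition. Comparisons, sums and shares across different genes are therefore rough. Ratios are log2((TIC + 1)/(NTC + 1)), with 1 FPKM added to each level, which understates differences of low genes. Statements of 2-fold below refer to this ratio, so the printed levels of a gene called within 2-fold can differ by more. Low values in short receptor genes placed the depth at roughly 21.0 M (TIC) and 21.6 M (NTC) fragments. A transcript of 1 kb at 1 FPKM then stands for about 21.0 and 21.6 reads. An exact 0 in these files can be a failed estimate and is given as listed at 0. All 10 basal mammary markers had higher levels in TIC, beyond 2-fold, with sums of 3899 against 40.8 FPKM. All 10 luminal markers had higher levels in NTC, also beyond 2-fold, with sums of 102.3 against 5445 FPKM. Of the blood cell markers, Coro1a (3.65 against 0.0771 FPKM), Lyz2 (1.56 against 0.727) and Cd68 (0.828 against 1.38) had a mean of 1 FPKM or more. Ptprc, carried by leukocytes in general, the T cell genes Cd3d and Cd3e, the B cell gene Ms4a1 and the macrophage gene Emr1 were listed at 0 in both. The lists summed to 0.525 FPKM in TIC against 0.588 FPKM in NTC for T and NK cells, 0.652 against 0.251 for B cells, 2.76 against 2.52 for macrophages and dendritic cells, and 3.65 against 0.328 for leukocytes in general (in TIC from Coro1a alone). Of the 7 endothelial markers none had a mean of 1 FPKM, and their sums were 3.22 against 0.351 FPKM. Of 8 fibroblast markers, TIC exceeded NTC by 2-fold or more for 5, and their sums were 176.9 against 2.44 FPKM, mostly from Dcn (151.8 against 1.51 FPKM). The part of cell lineage, or of fibroblast RNA, in the results below was not tested, and fewer cells of a type and less RNA per cell cannot be told apart.

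The summed receptor level was higher in TIC, and the summed ligand level was higher in NTC through Tnf and Tnfsf13. Receptor levels summed to 506.2 FPKM in TIC and 265.0 FPKM in NTC, or 299.4 and 254.8 FPKM without Tnfrsf19, ligand levels to 23.8 and 44.9 FPKM, or 23.4 and 13.1 FPKM without Tnf and Tnfsf13, and TRAF levels to 98.9 and 85.0 FPKM. Of the 52 members, 25 had a mean of at least 1 FPKM over both libraries and are called measured, 6 ligands, 12 receptors and all 7 TRAFs. TIC exceeded NTC by at least 2-fold for 9 of the 25 (36.0%), beside 14.6% of the 12004 measured genes. NTC exceeded TIC by as much for 2 of the 25, beside 13.8% of measured genes. Their median ratio was 0.50 beside -0.16 over all measured genes. Because 5 of the 25 (Cd70, Tnf, Tnfsf13, Edar and Traf5) passed only through the library where they were high, these counts are a description only. With 1 FPKM required in each library, 20 members passed, of which 6 were higher in TIC by this measure and 0 lower, beside 8.84% and 11.1% of 10466 genes. The members lower in TIC, Tnf and Tnfsf13, were removed by that requirement. With a pseudocount of 5 FPKM, 5 of the 25 were higher and 2 lower, beside 9.05% and 7.67% of the 12004 measured genes.

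**Figure D1:**
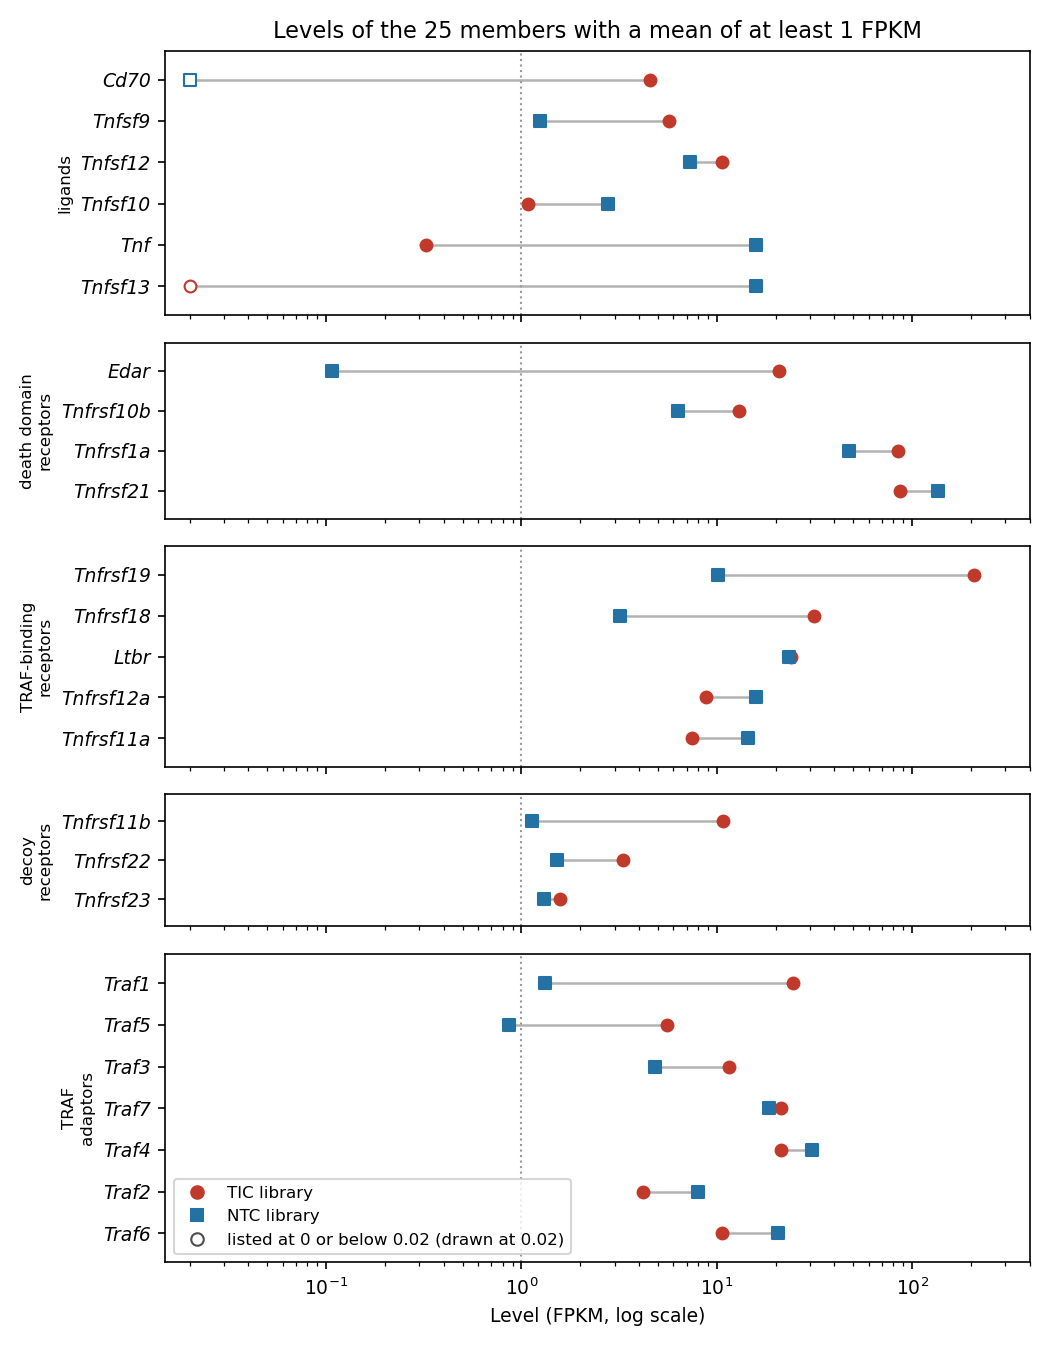
Level of each of the 25 measured members in the TIC library (red circles) and the NTC library (blue squares), in FPKM on a log axis, grouped by role. Open symbols are genes listed at 0, drawn at 0.02, and the dotted line marks 1 FPKM. Tnfrsf19, Edar and Traf1 lie far to the right in TIC, whereas Tnf and Tnfsf13 do so in NTC.

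Among the ligands, the leading genes differed between the libraries. Tnf, the inflammatory cytokine that gives the family its name, had 0.326 FPKM in TIC and 15.9 FPKM in NTC, a log2 ratio of -3.67 (chromosome 17, 35336336 to 35338941, build mm9). At the length of its transcript this is roughly 11.2 reads in TIC and 564.0 in NTC. Tnfsf13 (APRIL), a survival factor for B cells and plasma cells, stood at 15.9 FPKM in NTC and was listed at 0 in TIC. It shares its locus (chromosome 11, 69496079 to 69509600) with Tnfsf12, so reads of this locus may have been divided between them, and the division is uncertain. Tnfsf12 (TWEAK), which acts on Tnfrsf12a, had 10.7 FPKM in TIC and 7.29 FPKM in NTC, a log2 ratio of 0.50. Tnf and Tnfsf13 made up 35.5% and 35.3% of the summed ligand level in NTC, and in TIC Tnfsf12 made up 45.0% and Tnf 1.37%. The shares of Tnfsf12 and Tnfsf13 rest on that uncertain division. Without these 2 genes, ligand levels summed to 13.1 FPKM in TIC and 21.8 FPKM in NTC. Tnfsf10 (TRAIL), which can trigger cell death, had 1.08 against 2.79 FPKM, within 2-fold on the scale used.

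Cd70 and Tnfsf9, which are neighbours in the genome and are known as co-stimulators of T cells, were the ligands higher in TIC beyond 2-fold. Cd70 stood at 4.53 FPKM in TIC, and at 0 in the NTC list (chromosome 17, 57285420 to 57289200), and its level in TIC corresponds to roughly 80.1 reads. Tnfsf9 (4-1BB ligand) stood at 5.68 FPKM (TIC) and 1.25 FPKM (NTC), a log2 ratio of 1.57. With a pseudocount of 5 FPKM both came to lie within 2-fold. The other 12 of the 18 ligands were below a mean of 1 FPKM. Eda, the ectodysplasin ligand, had 0.875 FPKM in TIC and 0.329 FPKM in NTC, and Tnfsf8, the ligand of Tnfrsf8 (CD30), had 0.307 and 1.22 FPKM. Fasl, Cd40lg, Tnfsf11, Tnfsf13b and Tnfsf14 were listed at 0 in both libraries. The remaining ligands Lta, Ltb, Tnfsf4, Tnfsf15 and Tnfsf18 did not exceed 0.274 FPKM in either library.

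Edar, the ectodysplasin receptor, had the largest ratio toward TIC of the measured members with 1 FPKM added, while with 5 FPKM added Tnfrsf19 led (3.80 against 2.34 for Edar). It had 20.8 FPKM in TIC and 0.107 FPKM in NTC, a log2 ratio of 4.30 (chromosome 10, 58063536 to 58138444, build mm9), and the NTC level corresponds to roughly 8.4 reads. Its adaptor Edaradd, which links the death domain of Edar to TRAF proteins, had 20.5 FPKM in TIC and 0.013 FPKM in NTC. Receptor and adaptor thus stood at nearly the same level in TIC and near 0 in NTC, while the ligand Eda was below 1 FPKM in both. Eda2r, which binds another splice form of ectodysplasin, had 0.832 FPKM in TIC and 0.315 FPKM in NTC.

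Of the members taken by gene symbol, Tnfrsf19 (TROY), a receptor without a death domain, was the highest in TIC. It had 206.7 FPKM in TIC and 10.2 FPKM in NTC, a log2 ratio of 4.22 (chromosome 14, 61582671 to 61665692), and ranked 208 among the 22558 genes of TIC and 6339 in NTC. It made up 40.8% of the summed receptor level in TIC and 3.84% in NTC. Tnfrsf18 (GITR), known mainly from regulatory T cells, stood at 31.6 FPKM (TIC) and 3.20 FPKM (NTC), a log2 ratio of 2.96 (chromosome 4, 155400451 to 155403000). Its ligand Tnfsf18 stood at 0.0431 FPKM in NTC and was listed at 0 in TIC.

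The promoters of Edar and Tnfrsf19, the members with the largest ratios toward TIC, and of Tnf, the ligand with a large ratio toward NTC and a locus of its own, are shown here from RefSeq (build GRCm38.p6). Each runs from 250 bases before to 50 bases after the annotated start of transcription, 5′ to 3′ on the strand of the gene. The windows are chr10:58675647-58675946 (minus strand) for Edar, chr14:61037938-61038237 (minus strand) for Tnfrsf19 and chr17:35201958-35202257 (minus strand) for Tnf. Capitals mark the TCF/LEF motif CTTTGNT on either strand in the receptors and the TATA motif TATAAA, also searched on both strands, in Tnf.
Edar: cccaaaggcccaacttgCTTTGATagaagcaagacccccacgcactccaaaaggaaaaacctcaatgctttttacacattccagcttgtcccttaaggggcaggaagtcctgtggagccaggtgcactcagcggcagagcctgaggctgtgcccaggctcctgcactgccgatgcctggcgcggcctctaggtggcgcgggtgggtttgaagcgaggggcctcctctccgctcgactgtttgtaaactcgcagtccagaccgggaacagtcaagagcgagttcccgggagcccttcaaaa
Tnfrsf19: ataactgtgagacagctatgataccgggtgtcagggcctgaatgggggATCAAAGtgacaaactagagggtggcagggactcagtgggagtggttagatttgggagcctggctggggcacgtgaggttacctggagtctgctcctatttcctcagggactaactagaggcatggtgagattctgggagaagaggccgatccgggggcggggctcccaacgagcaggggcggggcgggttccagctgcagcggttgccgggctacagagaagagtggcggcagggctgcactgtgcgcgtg
Tnf: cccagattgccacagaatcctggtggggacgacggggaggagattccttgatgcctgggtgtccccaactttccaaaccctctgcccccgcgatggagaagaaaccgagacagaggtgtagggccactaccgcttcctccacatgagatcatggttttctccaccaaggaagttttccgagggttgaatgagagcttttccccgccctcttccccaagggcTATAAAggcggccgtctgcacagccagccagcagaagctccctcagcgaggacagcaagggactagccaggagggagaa
In Edar the TCF/LEF match begins 233 bases before the start site, and in Tnfrsf19 a match on the other strand begins 202 bases before it. The other annotated start of Tnfrsf19 had no match. The motif was found in 7 of 46 promoters of 42 members (15.2%) and in 18.6% of all 32851 promoters, so its presence in these genes is a description of the letters. In Tnf, TATAAA begins 29 bases before the start site, and this motif occurred in 15.2% of member promoters and 13.6% of all promoters.

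Of the other death domain receptors, 3 were measured, and these 3 were within 2-fold. Tnfrsf1a, the main receptor of Tnf on most cells, had 84.5 FPKM in TIC and 47.5 FPKM in NTC, a log2 ratio of 0.82. Tnfrsf10b, the death receptor for Tnfsf10, had 13.0 against 6.30 FPKM, a log2 ratio of 0.94 that passed 2-fold with ratios centred at the median over measured genes (1.10), with upper quartile scaling (1.04) or with a pseudocount of 0.1 FPKM (1.03). Tnfrsf21 (DR6) was the highest receptor in NTC, with 86.2 FPKM in TIC and 136.3 FPKM in NTC, and made up 17.0% and 51.4% of the summed receptor level. Fas, the receptor for Fasl, was low, with 0.457 against 0.554 FPKM, and Tnfrsf25 stood at 0.203 FPKM in NTC and was listed at 0 in TIC.

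The other 3 measured TRAF-binding receptors were within 2-fold. Ltbr, the lymphotoxin beta receptor, had 23.9 FPKM in TIC and 23.3 FPKM in NTC. Tnfrsf11a (RANK) had 7.50 against 14.5 FPKM, a log2 ratio of -0.87, and Tnfrsf12a (Fn14) had 8.86 against 15.8 FPKM, a log2 ratio of -0.77. Tnfrsf11b (osteoprotegerin), a secreted decoy that binds Tnfsf11 and Tnfsf10, went the other way, with 10.8 FPKM in TIC and 1.13 FPKM in NTC, a log2 ratio of 2.47. The level of the decoy was thus above that of Tnfrsf11a in TIC and below it in NTC, and their common ligand Tnfsf11 was listed at 0 in both libraries. Tnfrsf22 and Tnfrsf23, mouse decoy receptors for Tnfsf10, had 3.32 against 1.52 FPKM and 1.57 against 1.30 FPKM. They are close copies of each other, so how their reads were divided is uncertain.

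A mean of 1 FPKM was not reached by 15 of the 27 receptors, of which Fas, Tnfrsf25 and Eda2r are given above. Cd40 stood at 1.06 FPKM in TIC, with a listed 0 in NTC, and Tnfrsf13c, the receptor of B cells for Tnfsf13b, had 1.91 FPKM in TIC and 0.0266 FPKM in NTC, a level worth about 1.1 reads. Tnfrsf13c lay just below the filter, with a mean of 0.969 FPKM, as did Tnfrsf14 with 1.16 FPKM in TIC and 0.739 FPKM in NTC. Relt had 1.02 against 0.589 FPKM, Tnfrsf1b, the other receptor of Tnf, 0.563 against 0.379 FPKM, and Tnfrsf4 (OX40) 0.0475 against 0.545 FPKM. Cd27, Tnfrsf9, Tnfrsf13b and Tnfrsf26 did not exceed 0.187 FPKM in either library, and Tnfrsf8 and Tnfrsf17 were listed at 0 in both.

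At a cutoff of 1 FPKM, pairing of ligands with receptors differed in 1 combination. Of 29 known pairs, both partners reached 1 FPKM in 5 pairs in TIC and in 6 in NTC, and the 5 were shared. They were Tnfsf12 with Tnfrsf12a, and Tnfsf10 with Tnfrsf10b and the decoys Tnfrsf11b, Tnfrsf22 and Tnfrsf23. Tnfsf10 stood at 1.08 FPKM in TIC, just past the cutoff, and at 2.79 FPKM in NTC. Its pairs in TIC therefore depend on the cutoff, as does its pair with Tnfrsf11b in NTC, where Tnfrsf11b had 1.13 FPKM. The pair seen in NTC alone was Tnf with Tnfrsf1a, whose receptor had the higher level in TIC. The number of ligands at 1 FPKM or more was 4 in TIC and 6 in NTC, and that of receptors was 16 in TIC and 11 in NTC. Besides Edar, the receptors that reached it in TIC alone were Tnfrsf13c (1.91 FPKM), Tnfrsf14 (1.16), Cd40 (1.06) and Relt (1.02). These had a mean below 1 FPKM, as did the ligand Tnfsf8, which reached it in NTC alone (1.22 FPKM). The same counts over all genes were not made, so these are a description only. Cd70 and Tnfsf9 in TIC faced receptors, Cd27 and Tnfrsf9, at 0.165 and 0.0254 FPKM.

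**Figure D2:**
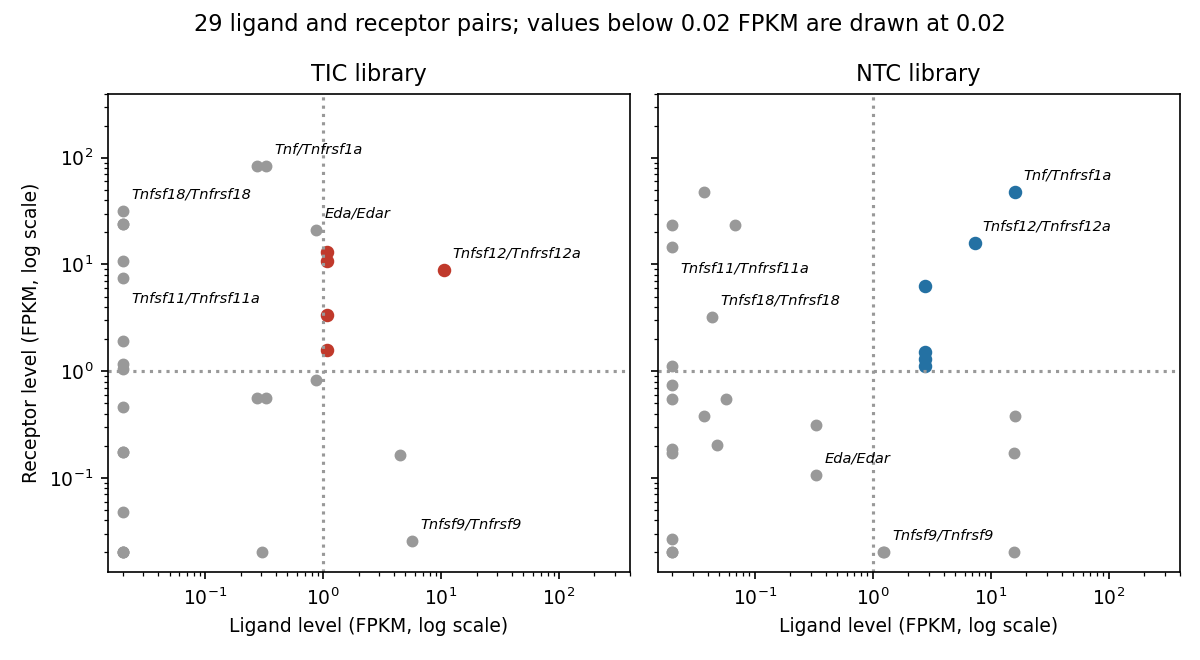
Level of the ligand (horizontal) and of the receptor (vertical) for 29 known pairs in each library, in FPKM on log axes, with values below 0.02 drawn at 0.02. Coloured points are pairs with both partners at 1 FPKM or more (dotted lines), 5 in TIC and 6 in NTC. The Tnf and Tnfrsf1a pair lies inside this corner in NTC alone.

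TRAF adaptors were all expressed in both libraries, in different proportions. Traf1, which has no RING domain and works with Traf2, had 24.6 FPKM in TIC and 1.33 FPKM in NTC, a log2 ratio of 3.46 (chromosome 2, 34798778 to 34817292). Traf5, which shares functions with Traf2, had 5.54 against 0.867 FPKM, and Traf3, which restrains the non-canonical NF-kB pathway, had 11.5 against 4.83 FPKM, log2 ratios of 1.81 and 1.10. The ratios of Traf5 and Traf3 came within 2-fold with a pseudocount of 5 FPKM, at 0.85 and 0.75. Traf2, the adaptor of Tnfrsf1a signalling, had 4.19 against 8.06 FPKM, and Traf6, which also serves Tnfrsf11a, Cd40 and the Toll-like receptors, had 10.6 against 20.6 FPKM. Traf4, known from breast carcinoma, had 21.3 against 30.8 FPKM, and Traf7, which carries WD40 repeats in place of the usual TRAF domain, had 21.2 against 18.5 FPKM. These 4 were within 2-fold. As shares of the summed TRAF level, Traf1 took 24.9% in TIC and 1.56% in NTC, Traf4 21.5% and 36.2%, Traf6 10.7% and 24.2%, and Traf2 4.23% and 9.48%. The order of the TRAFs therefore differed, with Traf1 first in TIC and sixth of the 7 in NTC.

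**Figure D3:**
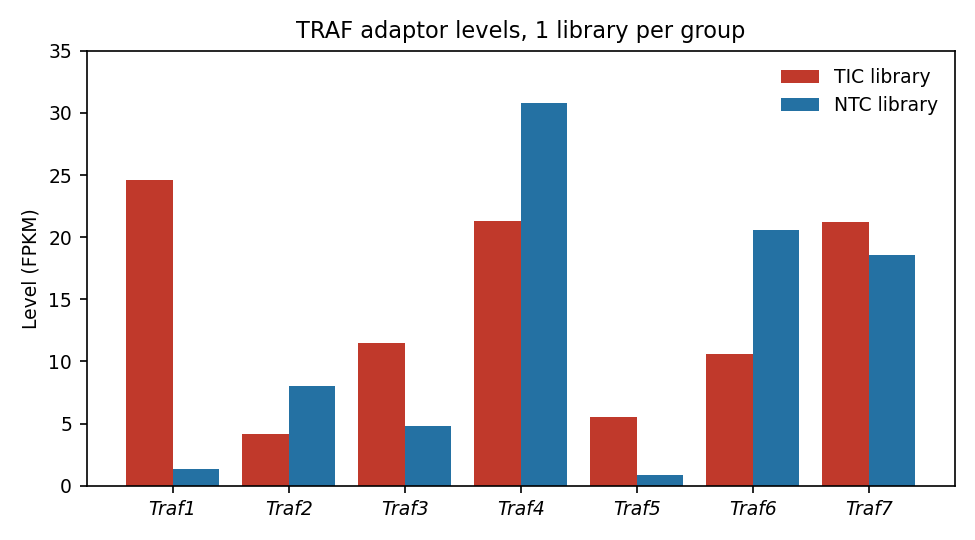
Level in FPKM of the 7 TRAF adaptors in the TIC library (red bars) and the NTC library (blue bars), with 1 library per group and so no error bars. Traf1 has 24.6 FPKM in TIC and 1.33 in NTC, and Traf4 and Traf6 are higher in NTC.

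The promoter of Traf3 is shown because it was the only measured member among those with a RefSeq promoter that held the NF-kB consensus motif. The window is chr12:111166120-111166419 (plus strand, build GRCm38.p6), and the capitals mark the motif, which begins 10 bases before the start site.
Traf3: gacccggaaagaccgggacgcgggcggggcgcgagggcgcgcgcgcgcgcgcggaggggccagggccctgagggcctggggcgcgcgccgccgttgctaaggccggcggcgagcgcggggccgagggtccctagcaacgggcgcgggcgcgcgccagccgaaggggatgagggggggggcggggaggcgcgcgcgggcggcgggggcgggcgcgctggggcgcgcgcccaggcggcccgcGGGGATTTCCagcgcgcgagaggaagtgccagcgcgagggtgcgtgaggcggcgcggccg
The motif, searched on both strands, occurred in 4 of 46 member promoters (8.70%) and in 4.51% of all promoters. The other 3 belonged to Ltb, Tnfrsf8 and Tnfrsf9, which were near 0 in both libraries, and in Tnfrsf9 a pair of matches overlapped. The promoter of Traf1 held none of the motifs searched, and the AP-1 motif TGANTCA occurred in 7 member promoters (15.2%) and 7.81% of all. These include overlapping windows of Tnfsf13b that hold the same site. In promoters of measured members the share was 5% (1 of 20) for each motif, beside 4.87% (AP-1) and 5.39% (NF-kB) for all measured genes. In those of members below 0.5 FPKM in both libraries, AP-1 occurred in 5 of 17 (29.4%), beside 10.8% for all such genes. Both windows of Tnfsf13b are among the 5, so the share rests on few genes. Promoters of the measured members had a median ratio of observed to expected CpG of 0.626, beside 0.758 for all measured genes. Those of members below 0.5 FPKM in both libraries had 0.327, beside 0.232 for all such genes.

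With loci at most 100 kb apart, 22 members fell into 9 clusters in mm9. In the cluster of Ltb, Tnf and Lta, which spans 10.8 kb, Tnf had 15.9 FPKM in NTC while Lta had 0.0372 FPKM and Ltb 0.0684 FPKM there. Tnfrsf18 and Tnfrsf4 lie within 15.2 kb, and Tnfrsf18 was higher in TIC whereas the low Tnfrsf4 had more in NTC. In the cluster of Tnfsf9, Cd70 and Tnfsf14, spanning 102.2 kb, both Tnfsf9 and Cd70 had higher levels in TIC and Tnfsf14 was listed at 0 in both. Ltbr and Tnfrsf1a, with Cd27 in a cluster of 138.3 kb, were both high in each library while Cd27 had 0.165 and 0.187 FPKM. The decoy receptors Tnfrsf22 and Tnfrsf23 were expressed next to Tnfrsf26, which had 0.0172 and 0.0673 FPKM. Tnfsf12 and Tnfsf13, given above, form another cluster. In the other 3 clusters, Tnfsf4 with Tnfsf18 did not exceed 0.0571 FPKM, Tnfrsf1b with Tnfrsf8 did not exceed 0.563 FPKM, and Tnfsf15 lies beside Tnfsf8, with at most 0.0479 and 1.22 FPKM.

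Most genes that carry the signal inside the cell were within 2-fold, 37 of 47 adaptors, kinases, ubiquitin enzymes and NF-kB proteins. TIC exceeded NTC by at least 2-fold for 3 (6.38%, beside 14.6% of measured genes) and NTC exceeded TIC for 7 (14.9%, beside 13.8%), and their median ratio was -0.30 beside -0.16 over all measured genes. Among the 10 death domain adaptors and kinases, Ripk3, a kinase of necroptosis, stood at 6.30 FPKM (TIC) and 1.35 FPKM (NTC). Mlkl, which Ripk3 activates to open the membrane, went the other way with 0.881 against 5.57 FPKM. Tradd (3.98 against 7.43 FPKM), Fadd (9.75 against 13.9), Ripk1 (7.73 against 8.60) and Casp8 (13.4 against 22.6) were within 2-fold. Of 13 ubiquitin ligases, deubiquitinases and their partners, 0 were at least 2-fold higher and 3 lower, namely Birc3 (4.56 against 10.3 FPKM), Rnf31 (5.40 against 12.4) and Tnip2 (3.23 against 8.48). Of 15 kinases and their partners, only Tank passed 2-fold, with 5.57 against 13.5 FPKM.

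Among 9 NF-kB factors and inhibitors, Nfkbia, the main inhibitor of NF-kB and itself induced by it, had 3.66 FPKM in TIC and 33.2 FPKM in NTC, a log2 ratio of -2.87. Bcl3, a nuclear partner of NF-kB, had 8.45 against 27.3 FPKM, and Nfkbie, another inhibitor, had 6.78 against 2.32 FPKM. Rela (20.9 against 39.3 FPKM), Nfkb1 (35.5 against 19.1), Nfkb2 (8.80 against 7.86) and Relb (2.23 against 2.97) were within 2-fold. Of 15 genes that TNF is known to induce through NF-kB, 8 were measured. TIC exceeded NTC by 2-fold for 2 of these 8 (beside 14.6% of measured genes) and NTC exceeded TIC for 2 of the 8 (beside 13.8%), with a median ratio of -0.45 beside -0.16. Tnfaip2 had 0.379 against 34.7 FPKM and Sod2, a mitochondrial superoxide dismutase, 9.87 against 24.0 FPKM. The adhesion molecules Icam1 and Vcam1 were higher in TIC, Icam1 with 37.4 against 6.36 FPKM and Vcam1 with 2.64 FPKM and a listed 0 in NTC. Ier3 (78.7 against 89.3 FPKM), Gadd45b (10.8 against 10.7), Cxcl1 (3.20 against 6.97) and Nfkbiz (9.09 against 15.6) were within 2-fold on the scale used. The direction of Tnf was therefore shared by some of these genes and not by others.

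**Figure D4:**
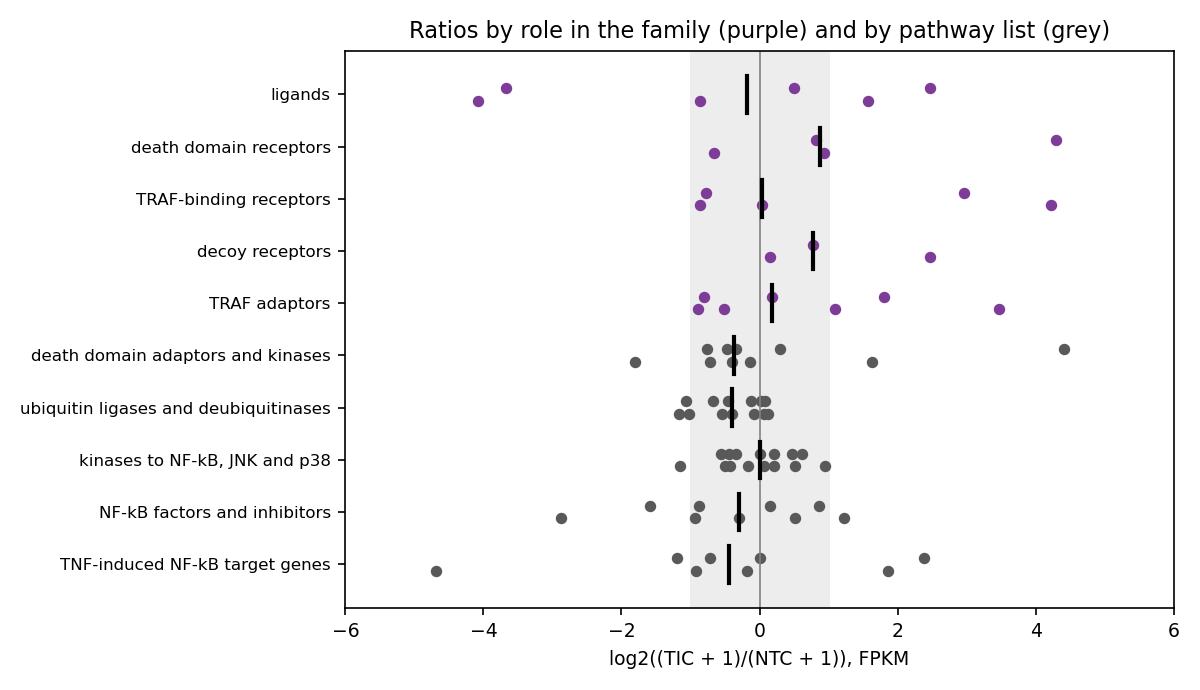
Ratio of TIC to NTC, log2((TIC + 1)/(NTC + 1)), for each measured gene (points) by role in the family (purple) and by pathway list (grey), with the median of each row as a black bar and the range within 2-fold shaded. The signalling lists lie mostly within 2-fold, though Edaradd among them reaches 4.41. The measured members reach from -4.08 (Tnfsf13, listed at 0 in TIC) and -3.67 (Tnf) to 4.30 (Edar). Tnfaip2, among the genes induced by TNF, lies furthest to the left at -4.69.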

How the data were processed

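RNA was sequenced from 2 libraries, 1 of tumour-initiating and 1 of non-tumorigenic cells, grouped by their descriptions. Per the labels' protocols, 15 ng of total RNA was amplified to cDNA, fragmented and made into libraries, and such amplification can alter the share of reads by length and base composition. The authors deposited 1 FPKM value per gene and library. Build mm9 and the tools TopHat 1.4.0, CASAVA 1.8.2, Cuffdiff and Cufflinks are listed in the submitters' processing notes, with no settings. Loci are headed as human, but 99.7% of 20009 symbols shared with the RefSeq gene table of GRCm38 lay on the same mouse chromosome, and 4.42% of starts lay within 1 kb. Positions are printed as mm9, with 1 added to each start, since 198 starts were 1 below that of GRCm38 and 12 equalled it.

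FPKM are not counts, so no count model was used. Depth came from olfactory and vomeronasal genes with loci under 1.5 kb, as the median FPKM × kb between 0.035 and 0.065. This was 0.0476 in TIC (23 genes) and 0.0463 in NTC (39 genes). The window itself bounds the depth that can result. Read numbers use the longest coding transcript in GENCODE M21 and are rough. They cover counting only. Log2 ratios, with a pseudocount of 1 FPKM and a mean of at least 1 FPKM, were computed in Python 3.11.15 with pandas 2.3.3. The counting was tested on simulated data, but only for genes of high level with changes well past 2-fold. That check does not cover low levels or ratios near 2-fold. Every measured member is named, and members below the filter are named with values if they reached 0.5 FPKM in either library. Some low members, and pathway genes within 2-fold, were named beyond that rule after their values were seen. The members, roles, lists and pairs were chosen with earlier results of these data known, and the pairs and motifs after the values were seen. Promoters of 42 of the 52 members were in the RefSeq table.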

Additional observations from a re-analysis of the deposited data

How the results depend on the processing

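The 25 ratios were recomputed under 6 other settings, and 18 stayed on their side of 2-fold under each setting whose filter they passed. The settings that changed only the filter could not move a ratio. No member that was at least 2-fold different changed direction, but none of these settings could reverse a ratio of that size. With a pseudocount of 5 FPKM the count higher in TIC was 5, as Cd70 (0.93), Tnfsf9 (0.77), Traf3 (0.75) and Traf5 (0.85) came within 2-fold. With a pseudocount of 0.1 FPKM, Tnfrsf10b (1.03), Tnfrsf22 (1.08) and Tnfsf10 (-1.29) passed it. The count higher ranged from 5 to 11 and the median ratio from 0.16 without a filter to 0.66 with centring, which shifted all ratios by 0.16. Over all genes, the share higher was 9.05% with a pseudocount of 5 FPKM, where 5 members were higher. It was 16.0% with 0.1 FPKM and 11.7% without a filter, where 11 members were higher. Requiring 1 FPKM in each library, an alternative chosen after seeing the data, left 6 higher and 0 lower and a median of 0.34. The shares over 10466 genes were 8.84% higher and 11.1% lower. This filter removed Tnf and Tnfsf13, the only lower members, so the 0 followed from it. No test was run for this comparison, so no p-value exists for that 0. No paired analysis was possible because each group has 1 library, and no library could be left out. Low members rest on few reads, about 1.1 for Tnfrsf13c in NTC and 8.4 for Edar in NTC, which limits their ratios.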

Other observations

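Further genes named after TNF or TRAF proteins, or belonging to the receptor family under another symbol, fell outside the rule by symbol and were looked at after their values were seen. Ngfr, the nerve growth factor receptor of the same receptor family, had 373.9 FPKM in TIC and 0.274 FPKM in NTC. Its level in TIC was above that of every member taken by symbol. Tnfaip8, a TNF-induced protein that opposes cell death, had 22.4 against 3.27 FPKM, and its relative Tnfaip8l1 had 1.75 against 8.37 FPKM. Tnfaip1 (43.3 against 45.7 FPKM), Traf3ip1 (4.09 against 4.20), Traf3ip2 (13.5 against 19.6) and Trafd1 (14.2 against 18.2) were within 2-fold. Tnfaip6 was listed at 0 in both libraries.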
